A study of Mus musculus with 2 samples.

Results

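The complement genes C1qa, C1qb, C1qc, C1ra, C1s1, C3, C4b, Cd55 and Serping1 were followed across the cell classes of mouse dorsal root ganglia. They are 9 of the 19059 genes measured, and each was found by its symbol. Dorsal root ganglia lie beside the spinal cord and hold the cell bodies of sensory neurons, with satellite glia around them, Schwann cells, a connective tissue sheath, vessels and resident macrophages. Cervical ganglia of both sides, from spinal levels C2 to C7, were taken after 3 days of imiquimod, a skin irritant, fixed in paraformaldehyde and read with the Chromium fixed RNA assay, in which pairs of probes report each gene as unique molecular identifiers (UMIs). Both groups had been given tamoxifen and both carried Foxp3 CreER, in which the Foxp3 gene drives the recombinase in regulatory T cells. The control group was Foxp3 CreER; Penk fl/WT and the group called Treg_Penk_KO was Foxp3 CreER; Penk fl/fl. Controls thus carried 1 floxed Penk allele beside a wild-type one. Each group was 1 library labelled as pooled. The sources used here do not give how many mice entered a pool, nor their age or sex.

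Complement is a cascade of plasma and tissue proteins that marks microbes, dead cells and synapses. In the classical pathway C1q, built of chains encoded by C1qa, C1qb and C1qc, binds a target and activates the proteases C1r and C1s (C1ra and C1s1 in the mouse), which cleave C4 (C4b) and start the assembly of the enzyme that cleaves C3. The C1 inhibitor (Serping1) blocks C1r and C1s, and CD55, a protein anchored in the cell membrane, speeds the decay of the C3-cleaving enzyme on the cell that carries it.

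The control library held 15710 barcodes with 259136217 UMIs and the Treg_Penk_KO library 12067 barcodes with 156441497 UMIs. Summed over all cells of a library, whatever their type, the targeted gene Penk had 582 UMIs for the control and 4 for Treg_Penk_KO. No class of regulatory T cells was named, and the difference in Penk was not tested by cell type. These sums therefore do not show in which cells Penk differed. A total of 4723 droplet barcodes occurred in both libraries, 30.1% of the control barcodes and 39.1% of the others. Cells were grouped without using the complement genes, so that no member defined a class. Classes were named for the marker genes they carried, hence the ending "-like". They comprised 667 control and 502 Treg_Penk_KO macrophage-like cells, 1751 and 1291 myelinating Schwann-like, 1747 and 1327 satellite glia-like, 1041 and 786 fibroblast-like, 598 and 546 perineurial-like (the sheath of nerve bundles), 219 and 128 mural-like (the cells around vessels), 48 and 40 meningeal-like, 606 and 508 endothelial-like and 6428 and 4963 neurons. A further glial cluster of 444 and 320 cells was led by C4b, Lgi4, Cdh19, Entpd2, Gpnmb and Gas7. It had 5 of 7 markers of non-myelinating Schwann cells raised but too small a lead over other glia to be named, and is called Lgi4 Cdh19 glia here. RNA of neurons was found in every class. Summed neuron markers reached 10891 and 11035 CPM (UMIs scaled to the same total in every class and library, the usual counts per 1e6) in neurons, and between 3644 and 6334 CPM in the other classes named above. The meningeal-like class was small, with 440620 UMIs in the control and 74165 in the other library, and for each gene the control cell with the most UMIs held a large share of the class: 54.8% for C1ra, 54.7% for C1s1, 29.6% for C3, 46.9% for C4b and 56.6% for Serping1. Levels below are CPM of the UMIs summed over a class in a library. With 1 library a group there was no test between genotypes, and the intervals are exact 95% intervals that cover counting error only. The sources used here do not give the number of probe pairs per gene, so levels are compared between classes and libraries and never between genes.

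For 8 of the 9 members the class with the highest level was the same in both libraries. The C1q chains were highest in macrophage-like cells, C1s1 and C3 in fibroblast-like cells, C4b in the Lgi4 Cdh19 glia, Cd55 in neurons and Serping1 in perineurial-like cells. C1ra was highest in meningeal-like cells in the control and in fibroblast-like cells in the Treg_Penk_KO library, and without the meningeal-like class it was highest in fibroblast-like cells in both. The plot of levels by class shows these orders.

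**Figure D1:**
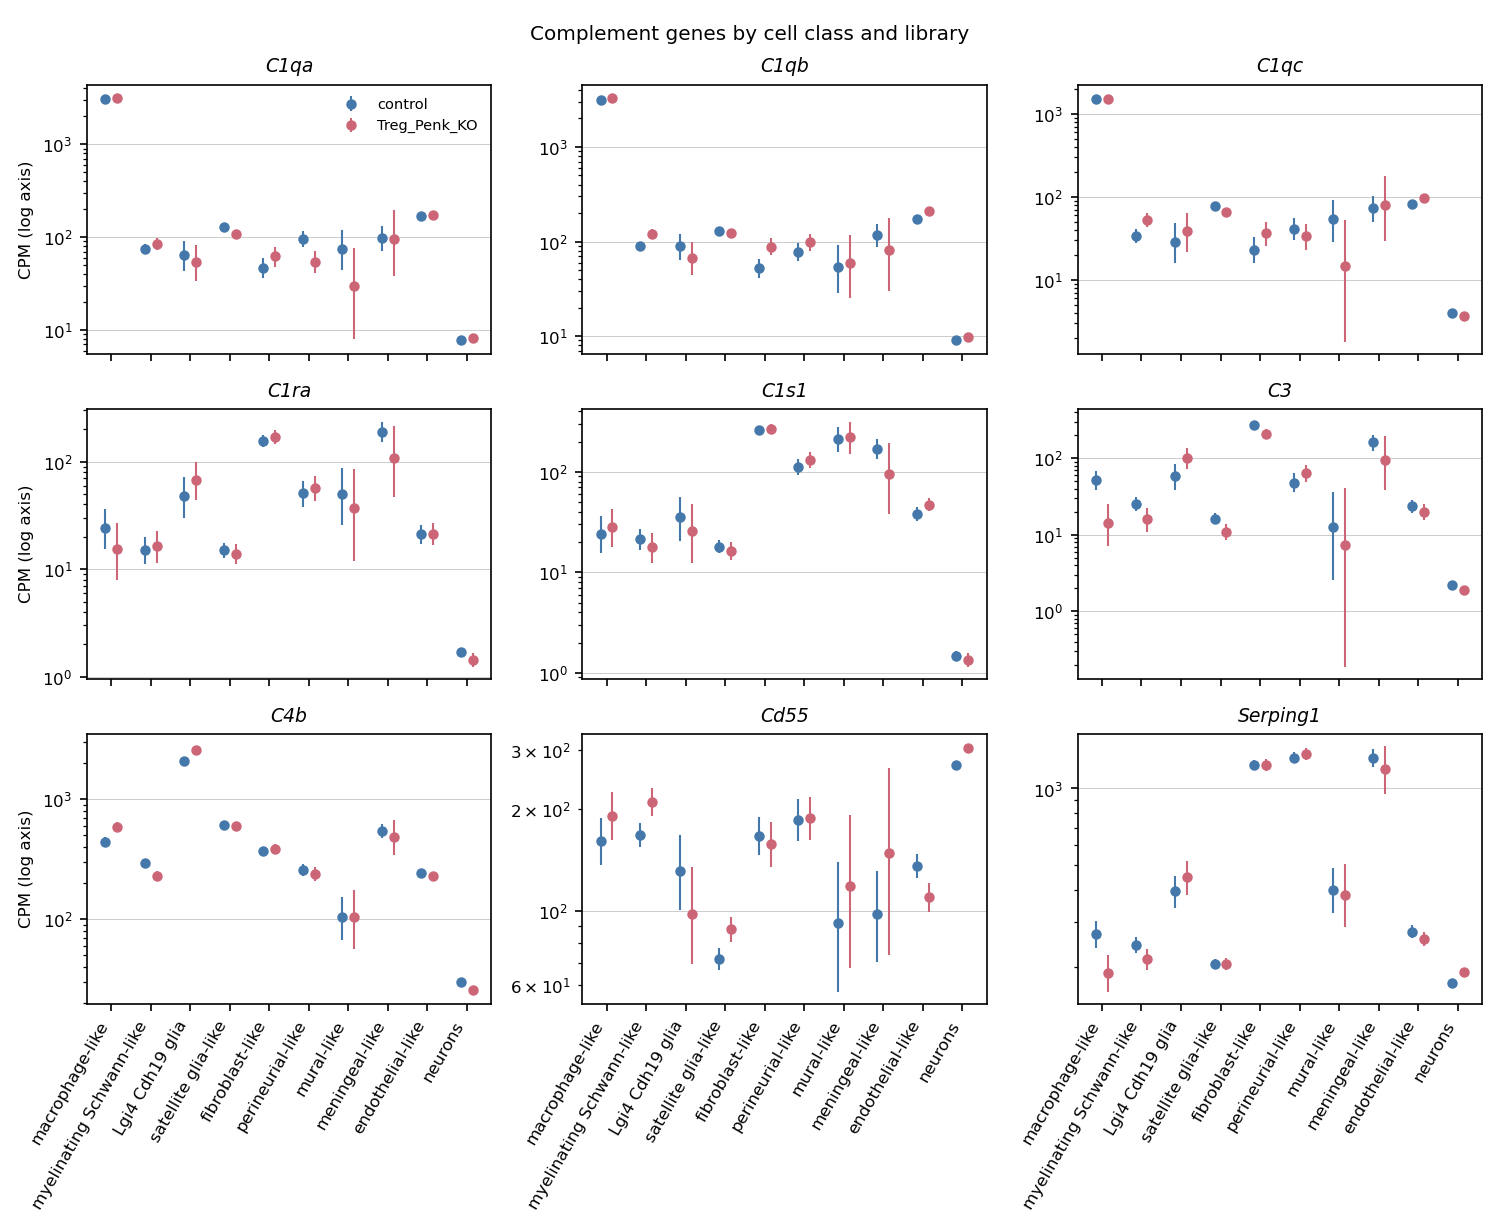
Level of each complement gene (CPM, log axis) in 10 cell classes of the control and the Treg_Penk_KO library. Points are sums over a class, bars are exact Poisson 95% intervals, and the class with the highest point is the same in both libraries in 8 panels, the exception being C1ra.

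The genes of the C1q chains lie side by side on the minus strand of chromosome 4 (GRCm39, GENCODE vM39). C1qb (ENSMUSG00000036905) spans 136606009 to 136613511, C1qc (ENSMUSG00000036896) 136616466 to 136620376 and C1qa (ENSMUSG00000036887) 136623223 to 136626161, each with 3 exons. Gaps of 2954 and 2846 bases separate them, with no protein-coding gene between neighbours. Since the chains moved together across classes, the 250 bases before each annotated start are shown, read 5′ to 3′ on the gene's strand, with matches to searched motifs in capitals.
C1qa (chr4:136626162-136626411, minus strand): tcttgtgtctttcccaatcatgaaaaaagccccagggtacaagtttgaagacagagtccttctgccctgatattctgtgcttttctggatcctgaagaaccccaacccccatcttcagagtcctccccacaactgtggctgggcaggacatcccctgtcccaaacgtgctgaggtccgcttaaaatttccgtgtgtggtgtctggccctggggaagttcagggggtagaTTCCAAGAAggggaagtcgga
C1qb (chr4:136613512-136613761, minus strand): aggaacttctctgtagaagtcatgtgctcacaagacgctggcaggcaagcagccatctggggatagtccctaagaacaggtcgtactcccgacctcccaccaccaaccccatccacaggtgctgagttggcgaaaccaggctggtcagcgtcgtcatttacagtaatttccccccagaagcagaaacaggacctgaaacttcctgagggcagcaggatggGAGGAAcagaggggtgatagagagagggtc
C1qc (chr4:136620377-136620626, minus strand): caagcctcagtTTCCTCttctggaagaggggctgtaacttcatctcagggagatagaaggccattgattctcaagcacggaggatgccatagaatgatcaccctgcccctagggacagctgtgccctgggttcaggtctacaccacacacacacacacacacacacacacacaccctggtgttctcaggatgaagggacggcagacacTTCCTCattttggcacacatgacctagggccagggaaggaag
Motifs were searched on both strands. GAGGAA, a core bound by ETS factors such as PU.1, was found once in the C1qb window, 30 to 25 bases before the start, and at 2 places in the C1qc window on the other strand, the nearer 42 to 37 bases before the start, and in neither strand of the C1qa window. Among the other members only the Serping1 window held it, 139 to 134 bases before the start. It occurred in 22.9% of the same windows of 21757 protein-coding genes. TTCNNNGAA, a site of STAT dimers, occurred in 7.70% of all windows and was found once, 21 to 13 bases before the C1qa start. The interferon response core, GAAA and GAAA with a pair of any bases between, occurred in 3.32% of all windows and in none of the 9 members' windows.

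C1qa was at 3085 CPM (2976 to 3196) in control macrophage-like cells and at 3123 CPM (3000 to 3250) in those of the other library. C1qb was at 3107 and 3260 CPM, and C1qc at 1520 and 1516 CPM. The next class, the endothelial-like cells, had 169 and 172 CPM of C1qa, 18.3-fold and 18.2-fold lower. C1qb was 18.1-fold and 15.5-fold lower there, and C1qc 18.5-fold and 15.6-fold lower. In macrophage-like cells C1qa was detected in 89.1% (86.4 to 91.3) and 91.2% of cells, C1qb in 90.1% and 89.2%, and C1qc in 76.0% and 76.3%. In neurons, which should lack C1qa, it was detected in 12.6% and 10.5% of cells at a median depth of 11237 and 7881 UMIs, against 912 and 896.5 UMIs in macrophage-like cells. After each cell had been thinned to 500 UMIs, the shares were 75.0% and 77.7% in macrophage-like cells and 0.731% and 0.766% in neurons. All 3 chains were found together in 68.7% and 70.9% of macrophage-like cells.

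Outside the macrophage-like class, C1q lay within the range of the macrophage markers. Of its macrophage-like level, C1qa in control cells kept 2.43% in myelinating Schwann-like cells, 4.20% in satellite glia-like cells, 5.47% in endothelial-like cells and 0.253% in neurons. The median of 10 macrophage markers, among them Csf1r, Mrc1 and Adgre1, kept 2.48%, 3.48%, 4.99% and 0.292% in the same classes. In the Treg_Penk_KO library the chains lay higher among the markers in some classes. C1qb kept 3.68% in myelinating Schwann-like cells, above 7 of 10 markers, 3.82% in satellite glia-like cells, above 8, and 2.06% in the Lgi4 Cdh19 glia, above 9. C1qc kept 2.55% in the Lgi4 Cdh19 glia, also above 9. None of the 3 chains was above all 10 markers in both libraries in any of 8 other classes, the meningeal-like cells not being compared. The part of macrophage RNA in these values was not tested. By UMIs, 32.6% of the control library's C1qa and 36.5% of the other library's came from macrophage-like cells, and 22.8% and 22.7% from an unnamed cluster of 1178 and 870 cells that carried both glial and neuronal genes.

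**Figure D2:**
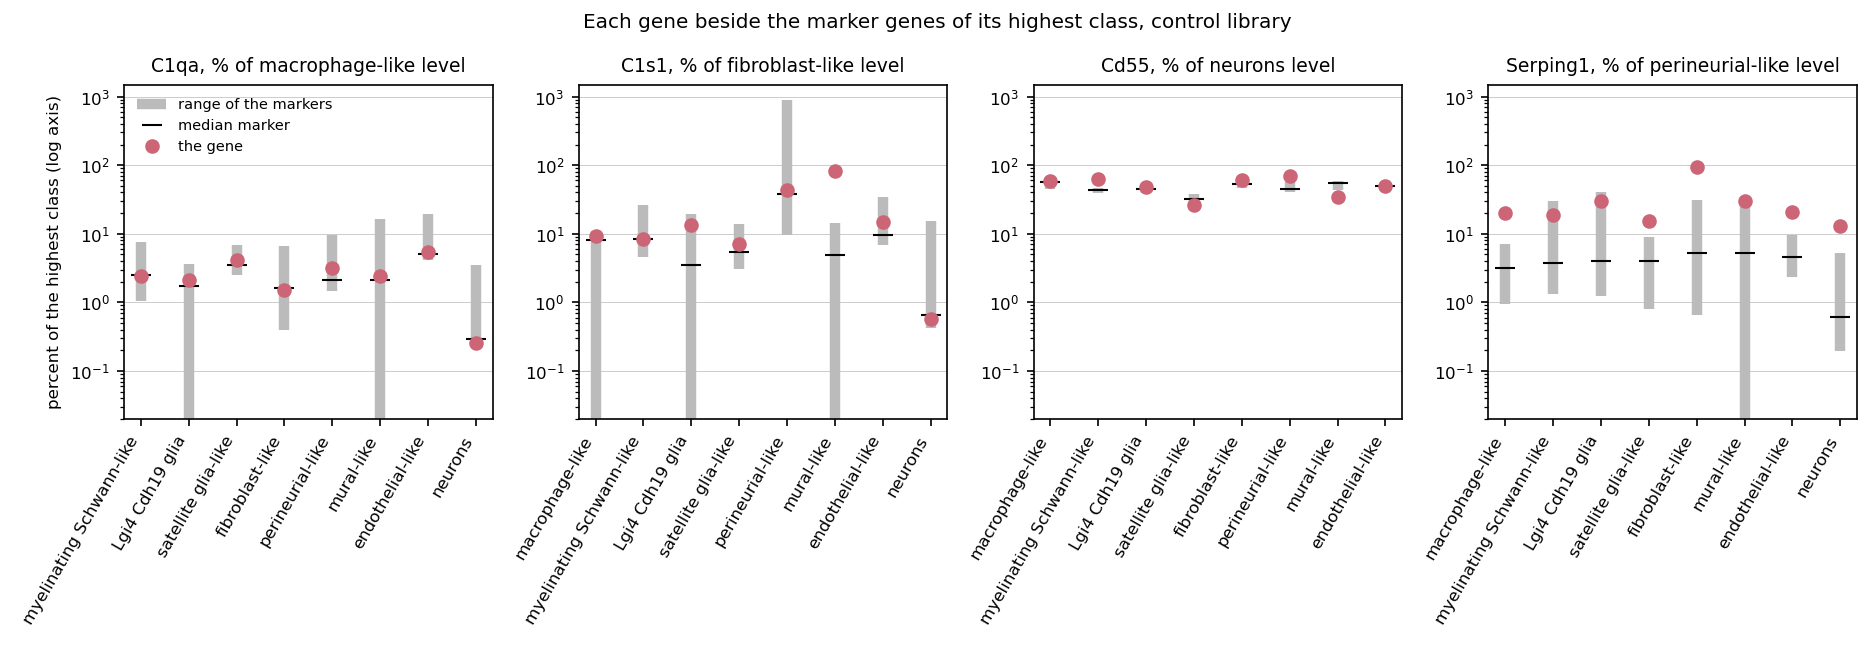
Level of C1qa, C1s1, Cd55 and Serping1 in other classes of the control library, as a percentage of the class where the gene is highest (log axis). Grey bars give the range of that class's marker genes, reaching the axis where a marker was at 0, and black ticks their median. C1qa lies near the median macrophage marker, whereas Serping1 lies above all 6 perineurial markers in 5 of 8 classes, with neurons (13.2%) the lowest of these.

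Within the macrophage-like cluster, C1qa ranged widely between the 11 subclusters. It was highest, at 7137 CPM over both libraries, in subcluster 2 (led by Slc13a3, Fpr1, Fcgr4, Ms4a7 and the haemoglobin gene Hbb-bs) and at 6395 CPM in subcluster 1, led by Lyve1, Vcam1 and Cd163, genes known from macrophages beside vessels. The dividing cells of subcluster 9, with Mki67 in the lead, had 3613 CPM. Subcluster 3 carried neuronal genes such as Slc17a7 and Pvalb and had 1001 CPM, and subcluster 7, with the myelin gene Mbp, had 2102 CPM. Subcluster 8, with the cytotoxic lymphocyte genes Gzma, Gzmb and Il2rb, had 41.0 CPM (3 UMIs). Subclusters 8 and 10, T cell-like and neutrophil-like, were left out of the macrophage-like class.

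The proportions of the chains differed little between libraries in macrophage-like cells. C1qb made up 40.3% (39.2 to 41.4) of the C1q UMIs in the control and 41.3% (40.0 to 42.5) in the Treg_Penk_KO cells, and these intervals overlapped. Over all cells the share was 40.5% (39.9 to 41.1) against 42.8% (42.1 to 43.6), and these did not.

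The protease genes C1ra and C1s1 were high in stromal classes. Both lie on chromosome 6, C1ra (ENSMUSG00000055172) at 124489364 to 124500402 on the plus strand and C1s1 (ENSMUSG00000038521) at 124507297 to 124559389 on the minus strand, 6894 bases apart. C1ra was at 155 CPM (136 to 177) in control fibroblast-like cells and at 170 CPM (146 to 197) in the others. Meningeal-like cells had 191 CPM (152 to 236) from 84 UMIs in the control and 108 CPM (46.6 to 213) from 8 UMIs in the other library, and in each library this interval overlapped that of the fibroblast-like cells. Below these classes came perineurial-like cells with 50.9 CPM in the control and the Lgi4 Cdh19 glia with 67.0 CPM in the other. In macrophage-like cells it was at 24.3 and 15.5 CPM, from 24 and 12 UMIs, and in neurons at 1.68 and 1.44 CPM. The Lgi4 Cdh19 glia had 47.7 and 67.0 CPM of C1ra, which was 30.7% and 39.4% of the fibroblast-like level. That was above all 9 fibroblast markers, each set against its own fibroblast-like level, in both libraries, and the same held for C1ra in mural-like cells at 32.2% and 21.7%.

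C1s1 was at 259 CPM (233 to 287) in control fibroblast-like cells and at 266 CPM (236 to 299) in the Treg_Penk_KO cells. Mural-like cells had 213 CPM (158 to 280) and 222 CPM (150 to 317), and the intervals of both classes overlapped in each library. Meningeal-like cells had 170 and 94.4 CPM, from 75 and 7 UMIs. C1s1 in mural-like cells was therefore 82.2% and 83.4% of the fibroblast-like level, where the median fibroblast marker was at 4.96% and 2.60%. Perineurial-like cells had 112 and 132 CPM and neurons 1.47 and 1.35 CPM. C1s1 was detected in 26.7% and 28.4% of fibroblast-like cells, against 4.00% and 2.82% of neurons at their greater depth.

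C1ra and C1s1 have close copies in the mouse genome. Of the 50-base windows of the C1ra transcript, 48.0% occurred unchanged in C1rb, and 24.5% of those of C1s1 in C1s2. The sources used here do not say which windows the probes cover, so their UMIs may hold some of the copy's.

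C3, the protein on which all complement pathways converge, was highest in fibroblast-like cells, at 273 CPM (246 to 302) in the control and 210 CPM (184 to 239) in the Treg_Penk_KO library. Its gene (ENSMUSG00000024164) lies on the minus strand of chromosome 17 at 57510964 to 57535155. The next class in the control was the meningeal-like cells with 161 CPM (71 UMIs), 1.69-fold lower, which had 94.4 CPM (7 UMIs) in the other library. The Lgi4 Cdh19 glia had 58.0 and 101 CPM and were next in the Treg_Penk_KO library, 2.09-fold lower. Fibroblast-like cells with a C3 UMI made up 17.9% and 15.3% of their class, against 5.83% and 3.41% of neurons. In the macrophage-like cluster, C3 was concentrated in the neutrophil-like subcluster 10, led by S100a8, S100a9 and Ngp, with 764 and 314 CPM (23 and 15 UMIs), and in subcluster 4, whose leading genes included Col1a1 and Col3a1, with 342 and 69.8 CPM (35 and 5 UMIs). Elsewhere in that cluster it had at most 4 UMIs in a library per subcluster.

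C4b, the gene of complement C4, was highest in glia. It (ENSMUSG00000073418) lies on the minus strand of chromosome 17 at 34947354 to 34962912. Its level in the Lgi4 Cdh19 glia was 2079 CPM (1953 to 2212) in the control and 2586 CPM (2428 to 2751) in the Treg_Penk_KO library, 3.43-fold and 4.34-fold above the satellite glia-like cells. C4b was detected in 73.2% and 76.9% of the Lgi4 Cdh19 glia and, after thinning to 500 UMIs, in 55.4% and 64.4%, against 2.50% and 1.81% of thinned neurons. Satellite glia-like cells had 607 and 596 CPM. Both of their clusters carried it, at 786 and 760 CPM in the shallow cluster (median 914.5 UMIs) and 567 and 551 CPM in the deep one (median 17163 UMIs). Meningeal-like cells had 542 and 485 CPM (239 and 36 UMIs), macrophage-like cells 436 and 591 CPM and fibroblast-like cells 369 and 383 CPM. Myelinating Schwann-like cells had 292 and 230 CPM and neurons 29.9 and 25.8 CPM. Of its level in the Lgi4 Cdh19 glia, C4b kept 29.2% and 23.1% in satellite glia-like cells. The median of 7 markers of non-myelinating Schwann cells kept 48.3% and 45.7% there. In macrophage-like cells C4b kept 21.0% and 22.8%, above 4 of 7 markers in each library. It was above all 7 in both libraries in 0 of 8 other classes. The part of RNA from the Lgi4 Cdh19 glia in these values was not tested. Within the macrophage-like cluster C4b was highest in the Lyve1 and Cd163 subcluster 1, at 1090 CPM over both libraries, and had 1 UMI in the T cell-like subcluster 8. Of the 50-base windows of C4b, 34.8% occurred unchanged in its copy C4a, which was not among the genes measured, so the 2 cannot be told apart where a probe lies in such a window.

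Cd55 was highest in neurons, and among them in the Mrgprd nonpeptidergic-like and Mrgpra3 pruriceptor-like subtypes. Its gene (ENSMUSG00000026399) lies on the minus strand of chromosome 1 at 130366469 to 130390926, and 10.8% of its 50-base windows were shared with the copy Cd55b. Neurons as a whole had 271 CPM (269 to 273) in the control and 304 CPM (301 to 307) in the Treg_Penk_KO library and held 88.8% and 89.7% of all Cd55 UMIs. Among 10 named subtypes, the Mrgprd nonpeptidergic-like neurons, which carry the receptor Mrgprd and serve skin pain and itch, had 926 and 938 CPM. The Mrgpra3 pruriceptor-like neurons had 577 and 578 CPM. They were made of a cluster led by Mrgprb4 and Mrgprx1 and another led by Mrgprx1, and Mrgpra3 was among the leading genes of neither. The other 8 subtypes lay between 44.1 and 120 CPM in the control and between 34.1 and 135 CPM in the Treg_Penk_KO library, with no overlap with the first 2. Trpm8 cold-like neurons, proprioceptor-like neurons and peptidergic A-fibre-like neurons were the lowest in both libraries. The Mrgprd nonpeptidergic-like neurons held 69.0% and 68.5% of the neuronal Cd55 UMIs. After thinning to 500 UMIs, Cd55 was detected in 31.6% and 32.7% of Mrgprd nonpeptidergic-like neurons and in 3.47% and 3.34% of proprioceptor-like neurons.

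In the other classes Cd55 stood at 26.6% to 69.2% of its neuronal level. The median of 8 neuron markers was at 31.7% in control satellite glia-like cells and 57.4% in control macrophage-like cells, where Cd55 was at 26.6% and 59.4%. It was above all 8 neuron markers in both libraries in the myelinating Schwann-like (62.0% and 69.2%) and perineurial-like cells (68.6% and 61.9%). The part of neuronal RNA in these values was not tested.

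**Figure D3:**
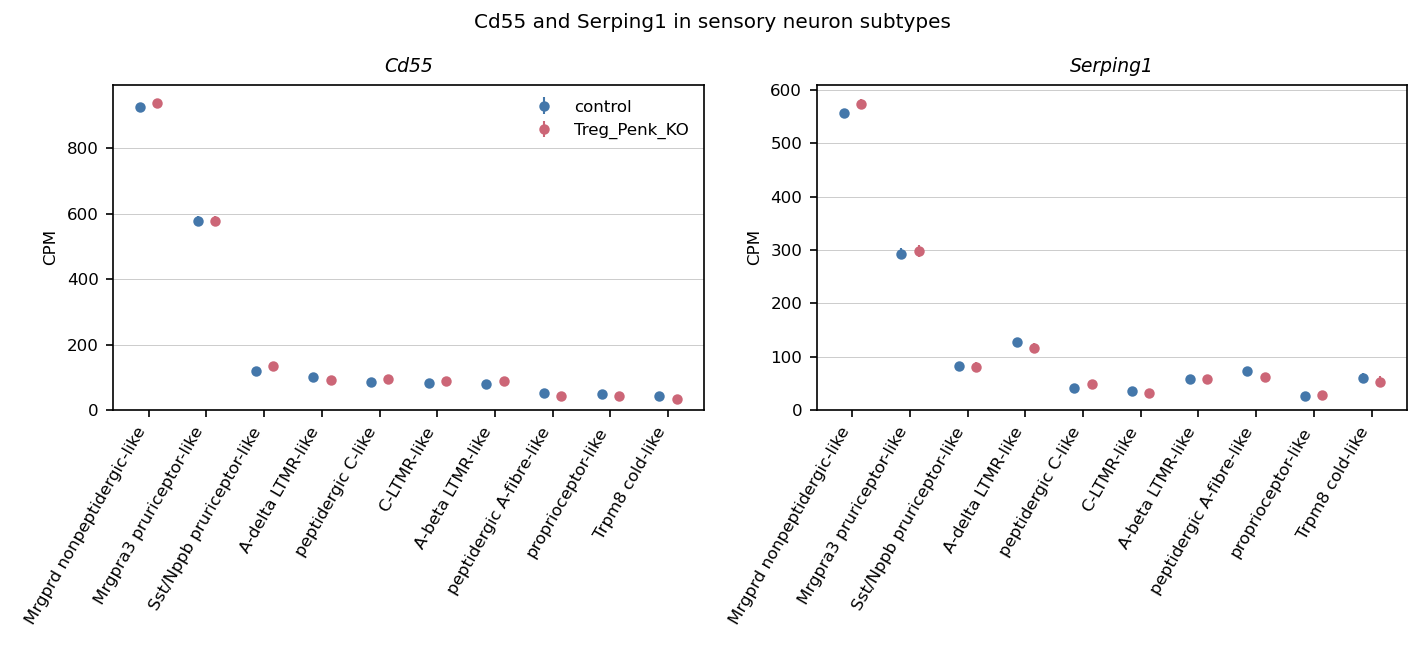
Level of Cd55 and Serping1 (CPM, linear axis from 0) in 10 sensory neuron subtypes of the control and the Treg_Penk_KO library, ordered by Cd55 in the control. Bars are exact Poisson 95% intervals, often smaller than the points, and in both panels the Mrgprd nonpeptidergic-like and Mrgpra3 pruriceptor-like neurons stand above the other 8 subtypes.

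Serping1, the C1 inhibitor, was highest in stroma and, among neurons, in the same pair of subtypes as Cd55. Its gene (ENSMUSG00000023224) lies on the minus strand of chromosome 2 at 84595705 to 84620873. Perineurial-like cells had 1321 CPM (1252 to 1392) and 1366 CPM (1294 to 1441), and fibroblast-like cells 1236 and 1237 CPM, with overlapping intervals between these classes in each library. Meningeal-like cells, with 1316 CPM (1211 to 1428) and 1187 CPM (952 to 1462), overlapped both. Below these 3 classes came mural-like cells with 401 CPM in the control and the Lgi4 Cdh19 glia with 449 CPM in the other library. Serping1 was detected in 66.4% and 70.5% of perineurial-like and 67.3% and 67.7% of fibroblast-like cells. By UMIs, neurons held 72.1% and 71.9% of all Serping1. The fibroblast-, perineurial-, mural- and meningeal-like cells together held 7.61% and 8.45%. Neurons as a whole had 174 and 192 CPM, or 13.2% and 14.1% of the perineurial-like level, where the median perineurial marker was at 0.619% and 0.488%. This was not particular to neurons. Serping1 was above all 6 perineurial markers in both libraries in 5 of 8 classes, namely macrophage-, satellite glia-, fibroblast- and endothelial-like cells and neurons. The Mrgprd nonpeptidergic-like neurons had 556 CPM (549 to 564) and 573 CPM (564 to 582), and the Mrgpra3 pruriceptor-like neurons 293 and 298 CPM. A-delta LTMR-like neurons, which sense light touch, followed with 127 and 117 CPM, and proprioceptor-like neurons were lowest with 26.3 and 27.5 CPM. Across the 10 subtypes in 2 libraries (20 points), log levels of Serping1 and Cd55 had a Pearson r of 0.899, the points sharing 2 libraries. Each subtype enters once per library, and the pair highest for both genes is among them. An r without that pair was not computed. Across classes and subtypes together r was 0.622.

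A ratio of Treg_Penk_KO to control of at most 0.8, or of at least the inverse of 0.8, was taken as a step of size where a gene had at least 100 UMIs over both libraries in a class. Of 63 such ratios of a member in a class, 15 were past the step, and in 11 of these the interval left out 1. Among all genes with enough UMIs, the share past the step ran from 6.63% in satellite glia-like cells to 56% in meningeal-like cells. It is not given here for mural-like cells. The share of all genes whose interval left out 1 was not counted. The C1q chains in macrophage-like cells were level, with ratios of 1.01 (0.959 to 1.07) for C1qa, 1.05 (0.995 to 1.11) for C1qb and 0.997 (0.923 to 1.08) for C1qc. Neurons and endothelial-like cells had 0 of 9 members past the step, where 7.13% and 10.7% of all genes with enough UMIs were past it. In neurons Cd55 had a ratio of 1.12 (1.11 to 1.14) and Serping1 of 1.10 (1.09 to 1.12). Within the Mrgprd nonpeptidergic-like subtype the ratios were 1.01 (0.996 to 1.03) and 1.03 (1.01 to 1.05).

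Single neuron subtypes had members past the step at low levels, in both directions. In A-delta LTMR-like neurons C4b was lower, at 28.9 and 15.9 CPM with a ratio of 0.551 (0.437 to 0.691), where 10.8% of all eligible genes were past the step. There C1qa was higher at 1.46 (1.03 to 2.06) and C1qb at 1.31 (0.955 to 1.79). C4b was also lower in C-LTMR-like neurons, which serve gentle touch, at 19.8 and 12.8 CPM with a ratio of 0.649 (0.506 to 0.827), against 7.03% of all eligible genes, with C1qb at 1.41 (0.968 to 2.04). Satellite glia-like cells had 607 and 596 CPM of C4b, and the part of glial RNA in the neuronal C4b ratios was not tested. In peptidergic C-like neurons C1qa was higher at 1.47 (1.03 to 2.12) and C1qb at 1.31 (0.983 to 1.74), against 7.43%. In peptidergic A-fibre-like neurons all 3 C1q chains were lower, with ratios of 0.693 for C1qa, 0.755 for C1qb and 0.482 for C1qc, against 11.4%. C1q in these neurons was below 15 CPM in both libraries, and summed macrophage markers were at 18.8 and 13.9 CPM. This subtype was made of a cluster of 362 control and 93 Treg_Penk_KO cells and another of 283 and 223 cells. The part of macrophage RNA or of this make-up in the ratios was not tested. C1qb was higher in A-beta LTMR-like neurons, at 4.94 and 7.35 CPM with a ratio of 1.49 (1.14 to 1.94), against 5.91%. In Mrgprd nonpeptidergic-like neurons, with 7 eligible members, C1ra was lower at 0.670 (0.442 to 0.997). Past the step with intervals that held 1 were C1qb (1.35) and C4b (0.797) in Sst/Nppb pruriceptor-like neurons, with 5 eligible members. The same held for Cd55 (0.773) in Trpm8 cold-like neurons, with 3 eligible members, and C3 (1.28) in proprioceptor-like neurons, with 7. For these and the Mrgprd nonpeptidergic-like neurons the share of all genes past the step is not given here, so these calls have no background beside them.

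**Figure D4:**
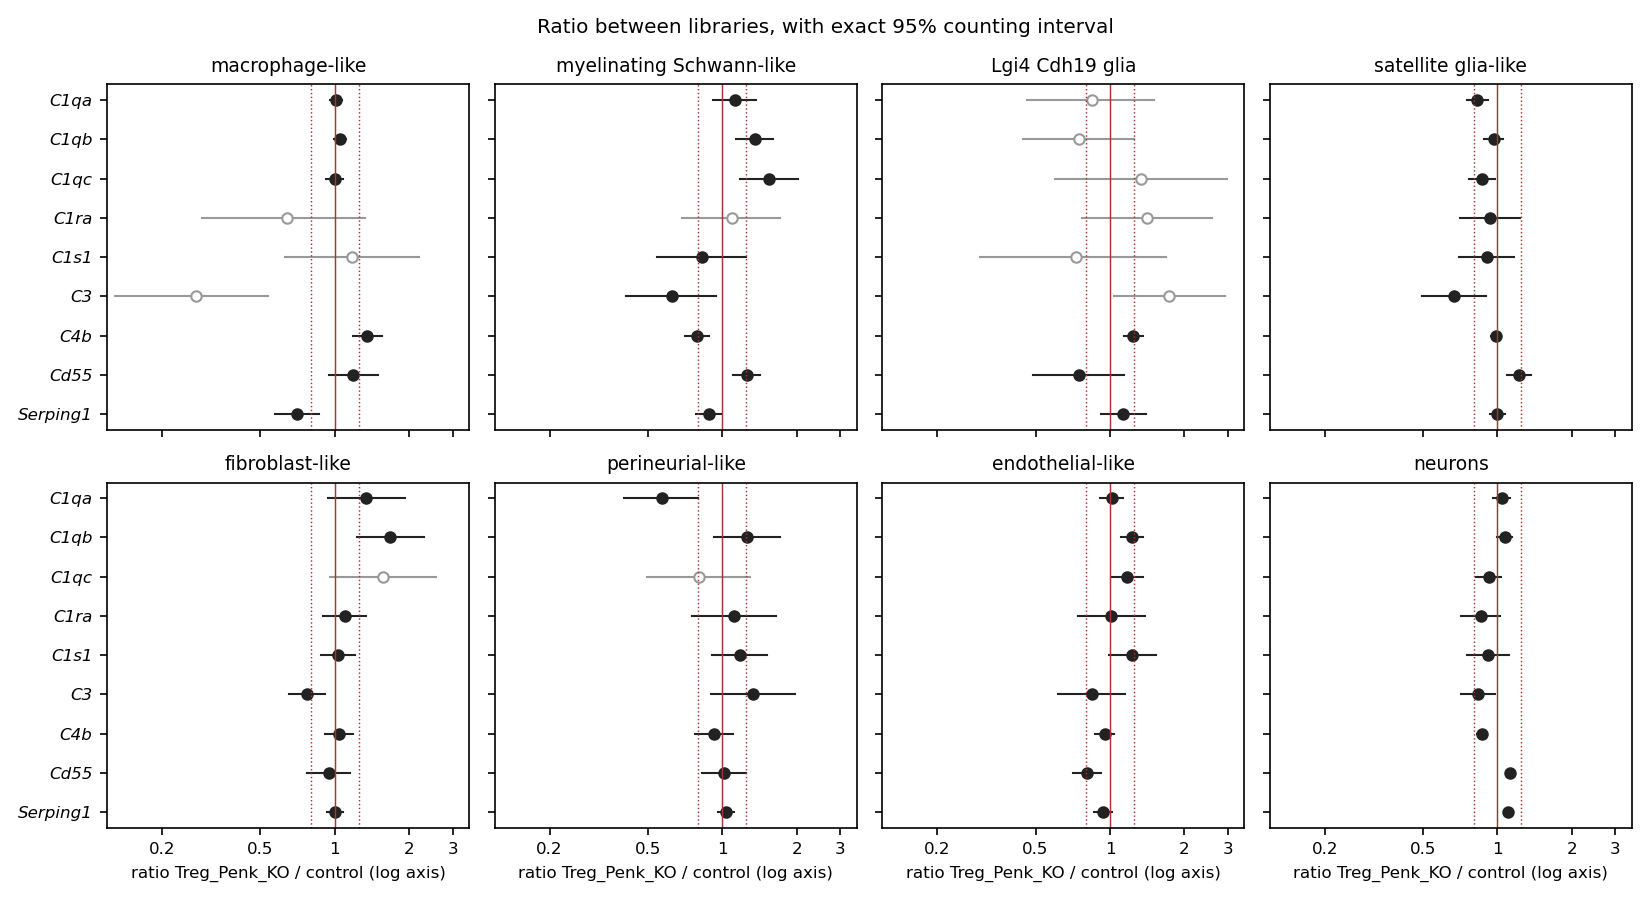
Ratio of the Treg_Penk_KO to the control library for each complement gene in 8 classes (log axis). Bars are exact 95% counting intervals, dotted lines mark 0.8 and its inverse, and open grey points are genes with under 100 UMIs. The C1q chains lie near 1 in macrophage-like cells, whereas C4b lies at 1.35 there and at 0.788 in myelinating Schwann-like cells.

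Macrophage-like cells had 2 of 6 eligible members past the step, against 18.1% of all 4699 eligible genes. C4b was higher in the Treg_Penk_KO cells, with 431 UMIs or 436 CPM (396 to 480) in the control and 457 UMIs or 591 CPM (538 to 647) in the other library, a ratio of 1.35 (1.18 to 1.55). The share of cells with a C4b UMI was 35.1% and 40.8%, and 19.5% and 28.5% after thinning. The ratio was 1.38 (1.15 to 1.66) in the 4 subclusters with few neuron markers (321 and 271 cells). By subcluster, C4b was at 898 and 1413 CPM in the Lyve1 and Cd163 subcluster 1 and at 763 and 1020 CPM in subcluster 2. It was at 709 and 644 CPM in subcluster 5 and at 417 and 357 CPM in subcluster 7, with intervals of the ratio, 0.579 to 1.43 and 0.499 to 1.44, that held 1. Serping1 was lower, with 269 and 190 CPM and a ratio of 0.705 (0.573 to 0.866). Its UMIs were concentrated in the collagen-led subcluster 4, with 1115 and 712 CPM, and in the 4 subclusters with few neuron markers its ratio was 1.23 (0.713 to 2.12) from 29 and 30 UMIs. C3 had too few UMIs to count, 51 and 11, of which 35 and 5 were in subcluster 4. The part of stromal RNA in the Serping1 and C3 values was not tested.

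**Figure D5:**
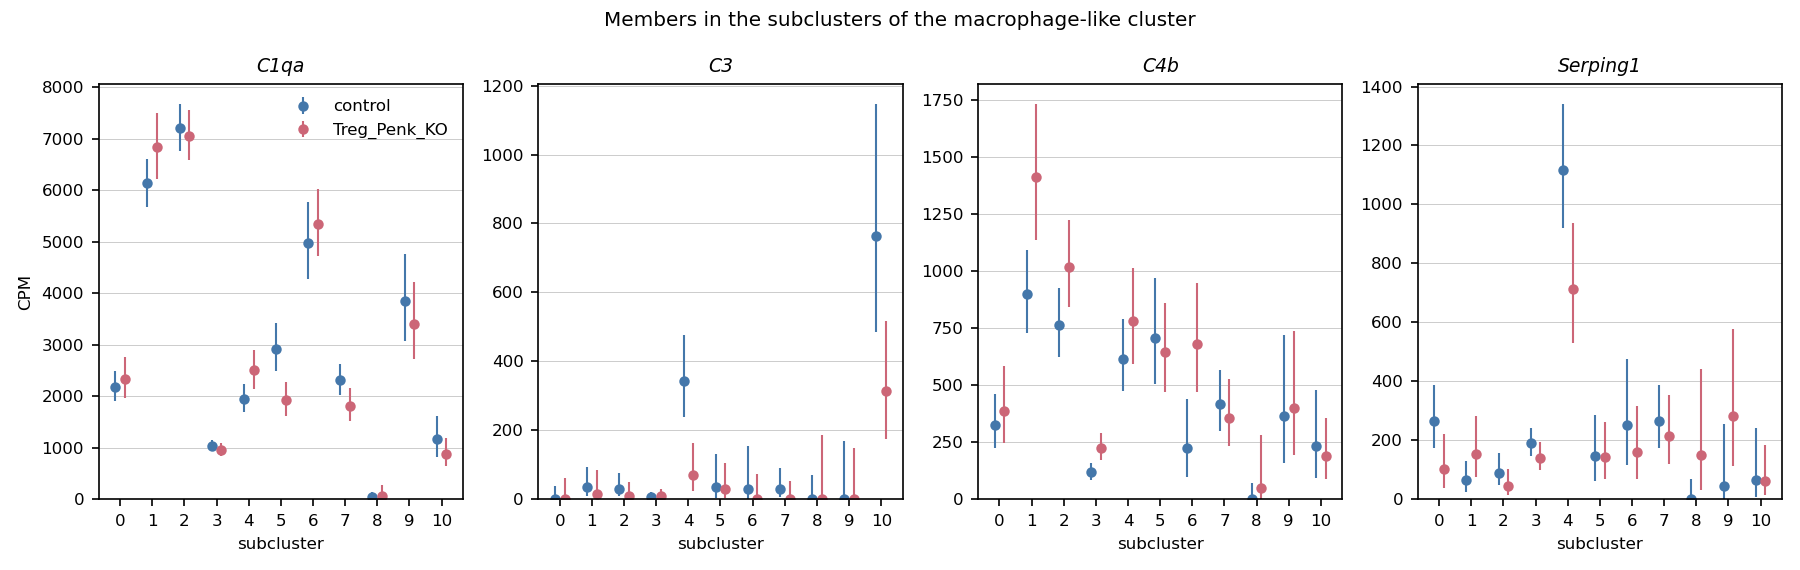
Level of C1qa, C3, C4b and Serping1 (CPM, linear axes from 0) in subclusters 0 to 10 of the macrophage-like cluster in both libraries, with exact Poisson 95% intervals. C4b is higher in the Treg_Penk_KO library in subclusters 1 and 2, Serping1 stands out in subcluster 4, and C3 in subclusters 4 and 10.

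Myelinating Schwann-like cells had 5 of 8 eligible members past the step, against 11.9% of all eligible genes, 3 higher and 2 lower. The highest was C1qc at 34.1 and 52.8 CPM, a ratio of 1.55 (1.18 to 2.03), with C1qb at 1.35 (1.14 to 1.60) and C1qa at 1.12 (0.919 to 1.36). Levels of all 3 chains in these cells were under 4% of the macrophage-like level, and summed macrophage markers were at 105 and 109 CPM. Itgam, among the leading genes of the macrophage-like cluster, was at 26.8 and 40.4 CPM here, a ratio of 1.51 (1.11 to 2.05). The part of macrophage RNA in the C1q ratios of this class was not tested. In the Treg_Penk_KO library, 16.4% of the C1qc UMIs of the class came from 1 cell with 18 UMIs. Cd55 was at 168 and 210 CPM, a ratio of 1.252 (1.10 to 1.42). C4b was lower at 0.788 (0.705 to 0.880) and C3 at 0.626 (0.406 to 0.946, 86 and 33 UMIs). The class was made of 2 clusters, and C4b was at 363 and 237 CPM in the deeper one but at 204 and 224 CPM in the shallower one. After thinning to 500 UMIs its ratio in the class was 1.01.

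In the Lgi4 Cdh19 glia 1 of 3 eligible members was past the step, against 22% of all eligible genes. This was Cd55, at 131 and 98.0 CPM from 63 and 38 UMIs, with a ratio of 0.750 and an interval of 0.488 to 1.14 that held 1. C4b had a ratio of 1.24 (1.14 to 1.36), just short of the step, and Serping1 of 1.13 (0.917 to 1.40). Globin genes, which come from red blood cells, summed in this cluster to 821 CPM for the control and to 2.58 CPM for Treg_Penk_KO, and their part in these ratios was not tested. In satellite glia-like cells C3 alone was past it, 1 of 9 against 6.63% of all eligible genes, with 152 and 67 UMIs, 16.3 and 10.9 CPM and a ratio of 0.669 (0.494 to 0.897). There C4b had a ratio of 0.983 (0.943 to 1.02). After thinning, or with each cell counted equally, the C3 ratio was 1.46 and 1.40.

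Fibroblast-like cells had 3 of 8 eligible members past the step, against 15.8% of all eligible genes. C3 was lower, at a ratio of 0.770 (0.651 to 0.910). C1qb was higher, at 1.67 (1.22 to 2.30) from 75 and 95 UMIs, and C1qa at 1.34 (0.941 to 1.91) from 66 and 67 UMIs, where 1 Treg_Penk_KO cell held 31.3% of the C1qa UMIs. Summed macrophage markers in this class were at 72.5 and 116 CPM, and their part in these ratios was not tested. The chief stromal members were level, with Serping1 at 1.00 (0.931 to 1.08), C1s1 at 1.03 (0.877 to 1.20) and C1ra at 1.09 (0.895 to 1.34). Perineurial-like cells also had 3 of 8, against 16.9%. C1qa was lower there, at 0.568 (0.401 to 0.798) from 102 and 54 UMIs, of which 1 control cell held 17.6%. C1qb at 1.255 (0.926 to 1.70) and C3 at 1.33 (0.902 to 1.96) had intervals that held 1. Over all stroma, meaning the fibroblast-, perineurial-, mural- and meningeal-like cells, 1 of 9 members, C1qb at 1.29 (1.06 to 1.56), was past the step against 14.8% of all eligible genes. Over all cells it was again C1qb alone, at 1.29 (1.247 to 1.325), against 6.28%. Macrophage-like cells held 987746 of the 259126129 UMIs of all kept control cells, and 773860 of 156434516 in the Treg_Penk_KO library. Summed macrophage markers over all cells were at 53.5 and 64.7 CPM. The part of this make-up in the C1qb ratio over all cells was not tested.

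The levels of each member were compared with 12691 genes over 18 classes and subtypes in 2 libraries (36 points that share 2 libraries), as a description only. C1qa was most like C1qc (Pearson r 0.995) and C1qb (0.993), then Fcer1g (0.991), a subunit of receptors for antibodies. C1ra was most like the collagen gene Col3a1 (0.974), C1s1 like Pcolce (0.980), which aids collagen processing, and C3 like Thbs2 (0.959). C4b was most like Gas7 (0.973), Cd55 like Ctxn3 (0.874) and Serping1 like Gpc3 (0.881).

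Of 51 other complement genes listed by pathway, 49 were measured. In macrophage-like cells 11 had enough UMIs, 1 was higher and 1 lower, where 18.1% of all eligible genes were past the step. The higher was Itgam, which encodes a chain of complement receptor 3, at 1105 and 1459 CPM with a ratio of 1.32 (1.21 to 1.44). The lower was Cfb, the alternative pathway protease factor B, at 143 and 101 CPM with a ratio of 0.706 (0.528 to 0.938). C3ar1, the receptor of the fragment C3a, was at 687 and 792 CPM with a ratio of 1.15. In neurons 28 were eligible, 2 higher and 4 lower, against 7.13% of all eligible genes. Clu, the secreted regulator clusterin, was the highest of them by level at 445 and 385 CPM, with a ratio of 0.867 (0.858 to 0.877). In perineurial-like cells 0 of 8 were higher and 1 was lower, against 16.9% of all eligible genes, namely Clu at 616 and 416 CPM with a ratio of 0.676 (0.596 to 0.766). Fibroblast-like cells had 0 of 8 past the step, against 15.8%, with Clu at 277 and 253 CPM. Vtn, vitronectin, an inhibitor of the terminal pathway, was at 1657 and 1635 CPM in mural-like cells. In meningeal-like cells Vtn was at 738 and 1996 CPM (325 and 148 UMIs), a ratio of 2.71 (2.21 to 3.30), in a class where 56% of all eligible genes were past the step. The 2 members with enough UMIs there, C4b at 0.895 (0.612 to 1.27) and Serping1 at 0.901 (0.712 to 1.13), were not past it. The membrane regulator Cd59a was at 404 and 508 CPM in the Lgi4 Cdh19 glia, with a ratio of 1.26 (1.03 to 1.54).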

How the data were processed

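The deposited matrices hold raw UMI counts per gene and barcode, made by the authors with Cell Ranger on GRCm39, per the labels' protocols, which name version 7.0, while the file headers name version 8.0.1. The submitters' processing notes also name Seurat, without saying for what. Nuclei are named in the series text, cells in the sample labels. Minimums of 500 UMIs and 300 genes left 15690 and 12053 barcodes. Cells were scaled to 10000 UMIs, log transformed and clustered together (scanpy 1.11.5 under Python 3.11.15) on 2972 variable genes, with the complement genes taken out, using 40 components, 15 neighbours and Leiden resolution 1.0. Names needed 50 cells, a marker score of 1.0, a lead of 0.35 and 3 markers raised. They were chosen with the clusters in view, and the 2 largest clusters they left unnamed held 7.51% and 5.91% of control and 7.22% and 5.89% of Treg_Penk_KO cells. Scrublet marked 0 and 1 cells as doublets, so it had not worked and all cells were kept. UMIs were summed per library and class, with exact Poisson intervals for CPM, conditional binomial intervals for ratios and Clopper-Pearson intervals for shares. The ratio intervals were tested on simulated Poisson totals of a class. Such totals hold no spread between cells or mice, so that test covers counting error only. Positions and windows before starts came from GRCm39 with GENCODE vM39. All 9 members were named, with the other complement genes past the step or among the 2 highest in a class, except some that are not reported here. Members and gene lists were chosen with earlier results of these data known.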

Additional observations from a re-analysis of the deposited data

Results flagged for a closer look

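C4b moved in opposite directions in 2 classes of the Treg_Penk_KO library. Its ratio to the control was 1.35 in macrophage-like cells and 0.788 in myelinating Schwann-like cells, and both intervals left out 1. The difference between the classes was not tested, since each group was 1 library. In macrophage-like cells the ratio lay between 1.28 and 1.71 under all 11 alternatives. In myelinating Schwann-like cells it lay between 0.726 and 1.12 under 10 alternatives, 6 of them in the same direction.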

How the results depend on the processing

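No paired analysis was possible because each group was 1 library. For 63 ratios of a member in a class there were 633 recomputed values. A change of direction was looked for only in the 15 ratios past the step. In the others, a value that crossed 1 was counted as close or as moved. With this rule 526 values stayed close, 96 moved and 11 changed direction. Those 11 were Serping1 in macrophage-like subclusters with few neuron markers (1.23), C4b in myelinating Schwann-like cells when thinned (1.01), with cells weighted equally (1.02), without the deepest 10% of cells (1.12) or at resolution 2.0 (1.11), Cd55 there at resolution 2.0 (0.861), C3 in satellite glia-like cells thinned (1.46) or weighted equally (1.40), and C1qa in fibroblast-like cells thinned (0.883), weighted equally (0.854) or in droplets of 1 library (0.908). The class with the highest level was the same in both libraries for 8 of 9 members, and for 7 to 9 under the alternatives. C1ra differed under 5 of these, always between fibroblast- and meningeal-like cells. C1s1 differed in droplets of 1 library (mural-like in Treg_Penk_KO), Serping1 at resolution 2.0 and C4b without a barcode filter. All 9 were the same without the meningeal-like class, an alternative added after seeing the data. The class itself was less stable for Serping1. In both libraries it was highest in fibroblast-like cells when thinned, weighted equally, without the highest Scrublet scores or without the deepest 10% of cells. With at least 1000 UMIs per barcode it was highest in meningeal-like cells in both. Counts past the step were less stable. In macrophage-like cells 2 became 0 with a step of 1.5, 4 with a floor of 30 UMIs and 1 in subclusters with few neuron markers. In myelinating Schwann-like cells 5 became 0 thinned, 3 weighted equally or in droplets of 1 library, and 2 without the deepest 10% of cells or with a step of 1.5. In the Lgi4 Cdh19 glia 1 became 0, 2 or 4, in satellite glia-like cells and in stroma 1 became 0 or 2, in endothelial-like cells 0 became 1, 2, 3 or 5, and in neurons 0 became 1, 2 or 4 (the 4 without the highest Scrublet scores). Without a filter on barcodes no Lgi4 Cdh19 glia cluster formed, so that alternative has no value there. The subclusters with few neuron markers, and a count of intervals leaving out 1 (11 of the 15 ratios past the step), were added after seeing the data. Wide intervals in mural-like cells, with 1 member at 100 UMIs, limit what depth can show.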
